A study of Homo sapiens with 12 samples.

Results

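The glycolysis and hypoxia response genes were 37 genes chosen by name and matched by symbol to the Ensembl gene IDs of the deposited count table, which holds 60675 IDs. They were 3 glucose and lactate transporters, 17 glycolytic enzymes, 4 regulators of glycolytic flux, HIF1A itself, and 12 HIF targets outside glycolysis. After the filter on low counts 36 of them were among the 15374 genes tested, and SLC2A3 was not. The cells were HT29, an established line from a human colorectal adenocarcinoma. All groups were sequenced after 24 h. The vehicle group received PBS with 2% DMSO, and the other groups received the water extract of Aconitum carmichaeli Debeaux (ACD), at a low dose of 20 µg/mL, a medium dose of 100 µg/mL and a high dose of 500 µg/mL. Each of the 4 groups had 3 libraries, 12 in all. The titles and the treatment field name ACD, while a separate treatment note speaks of Poria cocos prepared with water. Groups were taken from the titles. Nothing in the sources used here says that the libraries of a group came from separate cultures, so the p-values measure only the spread between these libraries, which may be technical. In such bulk RNA, fewer cells with a transcript and less of it per cell cannot be told apart.

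Glycolysis turns glucose into pyruvate and yields ATP without oxygen, and lactate dehydrogenase and the lactate exporter SLC16A3 dispose of the pyruvate as lactate. Its pace is set at hexokinase, at phosphofructokinase and by the bifunctional PFKFB enzymes, while the pyruvate dehydrogenase kinases (PDKs) keep pyruvate out of the mitochondria. When oxygen is low, the prolyl hydroxylases EGLN1 and EGLN3 stop marking HIF-1α for destruction, and the factor then switches on most genes of glycolysis together with genes for vessel growth, pH control, mitophagy and collagen processing. HIF-1α is controlled mainly as a protein, which RNA counts do not show.

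HIF binds the core letters ACGTG or GCGTG, and both were searched on both strands of the promoters, taken as 250 bases before to 50 bases after the first listed start of a gene (RefSeq, build GRCh38.p14). GCGTG is also the core of the aryl hydrocarbon receptor site, and ACGTG within CACGTG counts on both strands. A promoter was given for 33 of the 37 members, and VEGFA, SLC2A3, BNIP3L and NDRG1 had none. ACGTG was found in 14 of these 33 promoters (42.4%) and in 21.6% of all 27305 promoters, and GCGTG in 16 (48.5%) and in 36.3% of all. Of the 7 members with a promoter that rose at the high dose, 2 held ACGTG (28.6%), as did 12 of the 26 that were tested and did not pass (46.2%). The glycolytic enzymes held it in 8 of 17 promoters and the HIF targets outside glycolysis in 5 of 9. These matches describe letters and not bound sites. The 6 windows printed are a selection of promoters with ACGTG. They are from the enzymes PGK1 and LDHA, the HIF targets EGLN1, ANKRD37 and BNIP3, and PDK3, a regulator of flux. Of these PDK3 rose and the other 5 genes did not pass the test. Not printed are windows of HK2, ALDOC and GAPDH, which did not pass, and the promoter of ENO2, which held ACGTG and rose. Capitals mark ACGTG or, on the other strand, CACGT, and each window reads 5′ to 3′ on the strand of its gene. The PDK3 window is chrX:24465184-24465243 (+ strand), PGK1 is chrX:78104028-78104087 (+), LDHA is chr11:18394455-18394514 (+), EGLN1 is chr1:231422288-231422347 (− strand), ANKRD37 is chr4:185396661-185396720 (+) and BNIP3 is chr10:131982025-131982084 (−).
PDK3: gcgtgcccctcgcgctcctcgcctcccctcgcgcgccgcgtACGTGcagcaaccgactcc
PGK1: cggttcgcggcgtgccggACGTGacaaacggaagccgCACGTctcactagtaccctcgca
LDHA: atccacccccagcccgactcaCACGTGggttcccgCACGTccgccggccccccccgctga
EGLN1: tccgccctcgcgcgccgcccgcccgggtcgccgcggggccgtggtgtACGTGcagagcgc
ANKRD37: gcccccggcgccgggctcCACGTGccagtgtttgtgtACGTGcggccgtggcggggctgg
BNIP3: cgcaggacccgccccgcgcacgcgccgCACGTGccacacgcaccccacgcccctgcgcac
LDHA and ANKRD37 carried the letters at a pair of places within their windows, as did PGK1.

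The deposited values were expected counts per gene, with totals between 15941255 and 33866644 per library. High-dose replicate 2 stood apart from the other 11 libraries and was the highest or the lowest of the 12 in 61.5% of all genes tested, so results at the high dose are also given without it. Genes of the mitochondrial chromosome held 14.0% to 16.6% of the counts in the high-dose libraries and 7.41% to 11.1% elsewhere, and with library sizes taken without them the same 8 members passed at the high dose as with all genes. The 12 colorectal epithelial markers were all above 1 CPM (counts scaled to a common library size, here by TMM) on average, and their sum lay between 11380 and 13600 CPM in every group. Of 6 fibroblast markers the sum lay between 1.54 and 2.90 CPM, of 5 astrocyte markers between 6.06 and 8.64 CPM, and of the leukocyte markers without LYZ, a lysozyme that gut epithelium also makes, between 9.79 and 15.1 CPM. At the high dose 1 of 12 epithelial markers tested (CEACAM5), 1 of 3 leukocyte markers (CD68) and the 1 astrocyte marker tested (ALDH1L1) rose. None fell, beside 2.82% of all genes that rose and 2.95% that fell. Without high-dose replicate 2 CDX2 also passed upwards and KRT19, VIL1 and LYZ downwards, beside 9.83% and 8.89% of all genes. S100B had no count in any library, and PTPRC, CD3E, AQP4 and DCN had group means of at most 0.0409 CPM.

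At the high dose 8 of the 36 members tested rose and none fell, in edgeR's quasi-likelihood test with Benjamini–Hochberg adjustment over all genes tested (adjusted p under 0.05). They were the glucose importer SLC2A1, the enzymes PFKM, PFKP and ENO2, the kinases PDK1 and PDK3, HIF1A and the angiogenic factor VEGFA. This is 22.2% of the members, beside 2.82% of all genes tested that rose and 2.95% that fell. With a fold change over 1.5 also required, VEGFA and PDK3 remained, beside 1.26% of all genes. The libraries of the high dose lay wholly above those of the vehicle in 15 members and wholly below in 1, EGLN1, beside 10.5% and 11.5% of all genes. Where high-dose replicate 2 was left out, 12 members rose and none fell (HK1, HK2, ALDOC and SLC16A3 being added), but 9.83% of all genes then rose and 8.89% fell. The count was 4 without vehicle replicate 2 and 5 without high-dose replicate 3, beside 2.77% and 3.47% of all genes in either direction. SLC2A1, PFKP, PDK1 and VEGFA passed in each of these fits. With edgeR fitted on these 2 groups and no others, VEGFA was the member that passed, beside 1.21% of all genes in either direction. DESeq2's Wald test called 12 members on all libraries, all upwards, beside 8.46% of all genes in either direction, and 6 on the 2 groups alone, beside 3.52%.

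**Figure D1:**
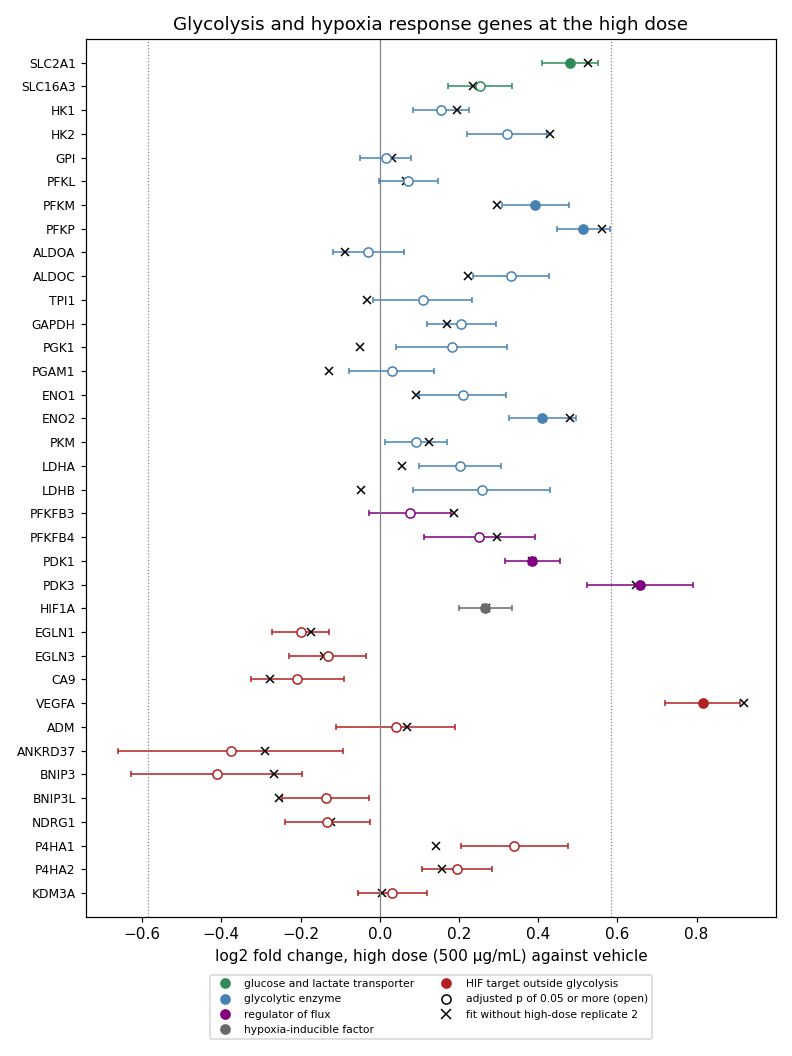
Log2 fold change at the high dose against vehicle for the 36 members tested, by class (colour), with the standard error as the bar. Filled points had an adjusted p under 0.05, crosses give the fit without high-dose replicate 2, and dotted lines mark a fold change of 1.5, which VEGFA and PDK3 passed.

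The plot of fold changes shows the classes apart from each other in the middle of the range: 16 of the 17 glycolytic enzymes lay above 0, as did both tested transporters and the 4 regulators of flux, while 7 of the 12 HIF targets lay below 0. The crosses of PGK1, LDHB, TPI1 and PGAM1 fell on the other side of 0 from their points.

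SLC2A1 (GLUT1, the main glucose importer of most cells, chr1:42925353-42958893 in GRCh38) read 543, 524 and 531 CPM in vehicle replicates 1 to 3, 555, 539 and 546 at 20 µg/mL, 643, 612 and 653 at 100 µg/mL and 776, 696 and 756 at 500 µg/mL. The medium and high libraries all lay above the vehicle libraries, and the low libraries overlapped them. Its log2 fold change at the high dose was 0.48 ± 0.07 (SE, adjusted p = 0.00149), a step from a mean of 533 ± 9.46 to 743 ± 41.6 CPM (SD, n = 3). SLC16A3 (MCT4), which exports lactate, read 65.7, 61.8 and 62.6 CPM in vehicle and 76.2, 77.2 and 72.9 CPM at the high dose. Its groups did not overlap, but its log2 fold change of 0.25 ± 0.08 (SE) had an adjusted p of 0.095. Counts of CSNK1D, which overlaps SLC16A3 on the opposite strand, were 256% of those of SLC16A3, and the strand setting of the counting is not given in the sources used here. SLC2A3 (GLUT3), a high-affinity importer known from neurons, had no count in 11 of the 12 libraries and 1 count in the other, where a floor of 3 counts corresponds to 0.0886 to 0.188 CPM per library.

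Phosphofructokinase commits sugar to glycolysis and exists as platelet (PFKP), muscle (PFKM) and liver (PFKL) forms. PFKP (chr10:3066333-3137718) read 112, 122 and 119 CPM in vehicle, 126, 136 and 132 at 20 µg/mL, 143, 142 and 146 at 100 µg/mL and 171, 157 and 177 at 500 µg/mL. Every library with ACD lay above the vehicle libraries, and the log2 fold change at the high dose was 0.51 ± 0.07 (SE, adjusted p = 0.000631). PFKM (chr12:48105139-48146404) read 63.8, 69.0 and 66.4 CPM in vehicle, 70.9, 69.5 and 77.6 at 20 µg/mL, 73.0, 70.9 and 75.3 at 100 µg/mL and 80.1, 99.0 and 83.0 at 500 µg/mL. Every library with ACD lay above the vehicle libraries, and replicate 2 of the high dose was the highest. Its log2 fold change was 0.39 ± 0.085 (SE, adjusted p = 0.0174) with all libraries and 0.30 ± 0.06 (adjusted p = 0.00298) without high-dose replicate 2. With vehicle replicate 1, 2 or 3 left out it missed the threshold (0.37, 0.43 and 0.40, with adjusted p-values of 0.068, 0.0502 and 0.0584). SENP1, on the opposite strand of the PFKM locus, had counts equal to 57.3% of those of PFKM. PFKL read 84.8, 83.9 and 78.0 CPM in vehicle and 89.3, 87.1 and 82.9 CPM at the high dose, and these overlapped (log2 fold change 0.07 ± 0.075, adjusted p = 0.66).

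Counted per kb of the canonical transcript, PFKP made up 47.4% ± 1.11 (SD, n = 3) of the phosphofructokinase transcripts in vehicle, 47.7% ± 1.31 at 20 µg/mL, 50.9% ± 0.299 at 100 µg/mL and 52.5% ± 3.01 at 500 µg/mL. PFKL went the other way, with shares of 29.9% ± 1.49 in vehicle and 24.4% ± 1.03 at the high dose. For both genes the vehicle and high-dose shares did not overlap between libraries, while the share of PFKM, 22.7% ± 0.383 in vehicle and 23.1% ± 2.72 at the high dose, overlapped. Among the lactate dehydrogenases, LDHB held 57.8% ± 0.575 in vehicle and 58.1% ± 3.66 at the high dose, where replicate 2 stood at 62.2% and the other libraries at 55.4% and 56.6%. The hexokinase HK2 held 20.2% ± 0.552 of the HK1 and HK2 transcripts in vehicle and 22.0% ± 1.68 at the high dose, with overlap. These shares are descriptions with no test.

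Enolase makes phosphoenolpyruvate, and ENO2 is its neuronal form, which tumour lines also carry. ENO2 (chr12:6913745-6923698) read 17.5, 17.6 and 18.2 CPM in vehicle, 17.4, 19.2 and 19.9 at 20 µg/mL, 19.9, 18.8 and 20.6 at 100 µg/mL and 25.2, 21.0 and 24.4 at 500 µg/mL. The high-dose libraries were the 3 highest of all 12, with a log2 fold change of 0.41 ± 0.085 (SE, adjusted p = 0.0144). Leaving out vehicle replicate 2 gave 0.41 (adjusted p = 0.0606), and leaving out replicate 1 or 3 of the high dose gave 0.36 (adjusted p = 0.0568) or 0.385 (adjusted p = 0.0612). ENO2 was between 0.70% and 1.05% of the enolase transcripts per kb in every library, the rest being ENO1.

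HK2, the inducible hexokinase that traps glucose in the cell, read 49.3, 58.1 and 58.5 CPM in vehicle and 76.0, 57.6 and 73.3 CPM at the high dose. Replicate 2 of the high dose lay among the vehicle libraries and the other 2 lay above them. The log2 fold change was 0.32 ± 0.10 (SE, adjusted p = 0.0894), and 0.43 ± 0.07 (adjusted p = 0.000294) without that library. HK1, the constitutive form, had log2 fold changes of 0.155 at the high, 0.17 at the medium and 0.12 at the low dose, none past the test. The aldolase ALDOC read 18.0, 16.6 and 17.4 CPM in vehicle and 19.3, 25.6 and 20.9 at the high dose, without overlap (log2 fold change 0.33 ± 0.10, adjusted p = 0.0661).

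**Figure D2:**
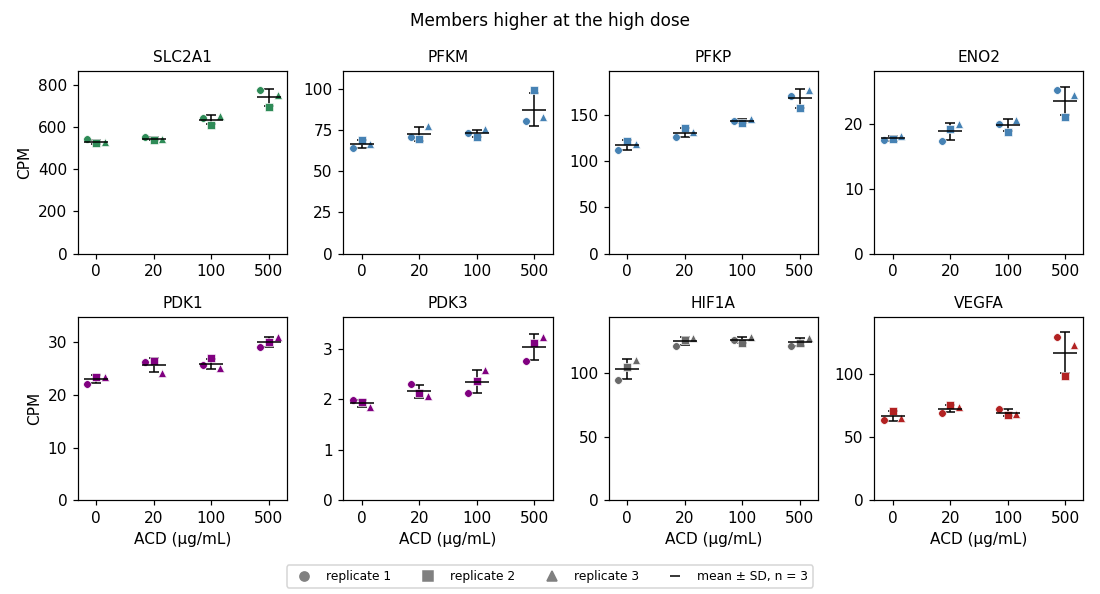
CPM of the 8 members that rose at the high dose, in each library (points, shaped by replicate number) at 0 (vehicle), 20, 100 and 500 µg/mL ACD, with mean ± SD (n = 3). HIF1A is as high at 20 as at 500 µg/mL, while VEGFA overlaps the vehicle at 20 and 100 µg/mL and lies between 98.4 and 129 CPM at 500 µg/mL.

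The panels of the 8 members show 3 shapes. SLC2A1, PFKM, PFKP, ENO2, PDK1 and PDK3 had means that were higher at each dose than at the one before, VEGFA stood out at the high dose alone, and HIF1A stood at 1 level with any dose.

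Most of the remaining glycolytic enzymes are the abundant ones of the lower pathway. GAPDH, which reduces NAD+ to NADH and had the highest level of all members per kb, read 2902, 2731 and 2828 CPM in vehicle, 2686, 2784 and 3139 at 20 µg/mL, 2998, 2763 and 2964 at 100 µg/mL and 3211, 3420 and 3125 at 500 µg/mL. The high libraries lay above the vehicle libraries, with a log2 fold change of 0.21 ± 0.09 (SE, adjusted p = 0.212). PGK1, the first ATP-yielding step, read 589, 564 and 576 CPM in vehicle and 532, 848 and 580 CPM at the high dose. LDHB, which favours lactate to pyruvate, read 759, 708 and 716 CPM in vehicle and 694, 1203 and 713 CPM at the high dose. In both genes high-dose replicate 2 alone was high and the other 2 libraries lay within or below the vehicle range. LDHA, which favours pyruvate to lactate, read 930, 894 and 921 CPM in vehicle and 962, 1256 and 940 CPM at the high dose.

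**Figure D3:**
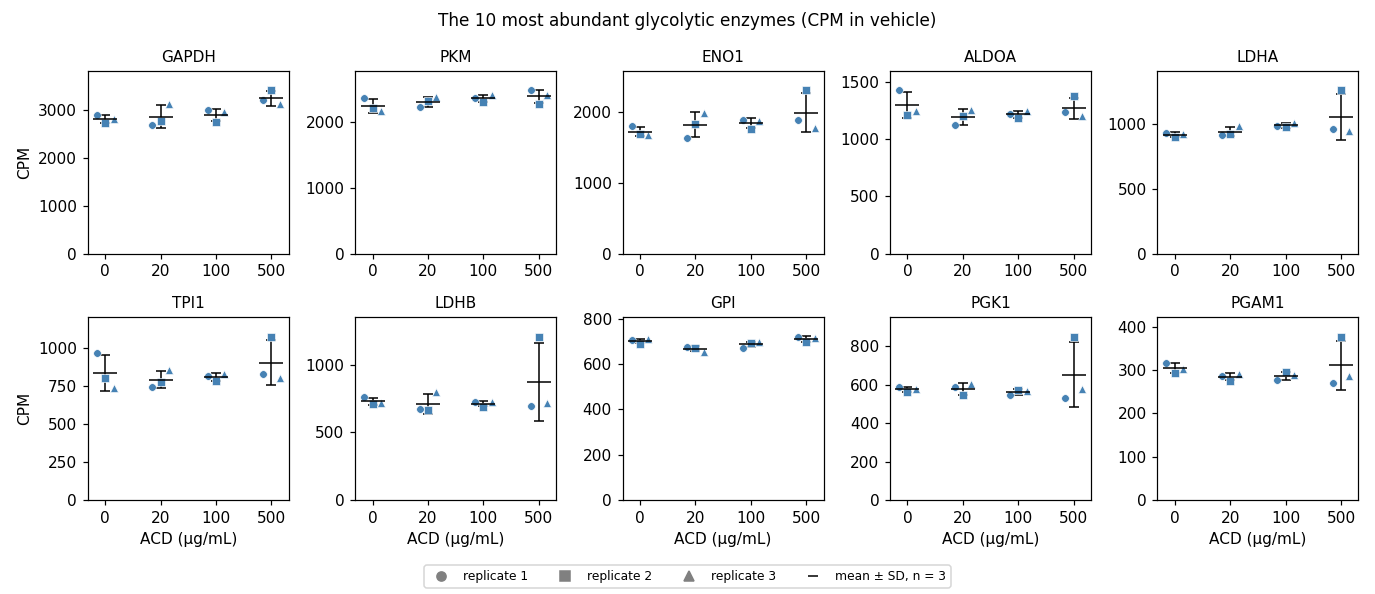
CPM of the 10 glycolytic enzymes with the highest CPM in vehicle, in each library (points, shaped by replicate number) at 0 (vehicle), 20, 100 and 500 µg/mL ACD, with mean ± SD (n = 3). At 500 µg/mL the square of replicate 2 is the highest of the 3 high-dose points in 8 of the 10 panels, at 1203 CPM for LDHB beside 694 and 713 CPM, and the lowest of the 3 for PKM and GPI.

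High-dose replicate 2 was at 1.71 times the mean of the other 2 high-dose libraries for LDHB, 1.53 for PGK1, 1.35 for PGAM1, 1.32 for LDHA, 1.31 for TPI1, 1.26 for ENO1 and 1.13 for ALDOA, and it was the highest of all 12 libraries in 9 of the 17 glycolytic enzymes (52.9%), beside 30.7% of all genes tested. The ratio was over 1 in 11 of the 17 enzymes and under 1 in 6, at 0.772 for HK2, 0.848 for ENO2, 0.905 for PFKP, 0.913 for HK1, 0.932 for PKM and 0.971 for GPI. Without it the log2 fold changes were −0.05 for PGK1, −0.05 for LDHB, −0.03 for TPI1, −0.13 for PGAM1 and 0.06 for LDHA, in place of 0.18, 0.26, 0.11, 0.03 and 0.20, and none of these 5 genes passed the test either way. GPI, the isomerase, stayed within 655 to 720 CPM in all libraries, with a log2 fold change of 0.015 ± 0.06 at the high dose. PKM, pyruvate kinase, lay at 0.09 ± 0.08 and ENO1 at 0.21 ± 0.11 on the log2 scale, also without passing.

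PDK1 and PDK3 phosphorylate and silence pyruvate dehydrogenase. PDK1 (chr2:172555373-172608669) read 22.2, 23.4 and 23.5 CPM in vehicle, 26.3, 26.5 and 24.1 at 20 µg/mL, 25.7, 27.0 and 25.1 at 100 µg/mL and 29.0, 30.2 and 31.0 at 500 µg/mL. All libraries with ACD lay above all vehicle libraries, and the log2 fold change at the high dose was 0.39 ± 0.07 (SE, adjusted p = 0.00605). PDK3, whose promoter window is printed here (gene at chrX:24465244-24550466), read 1.98, 1.94 and 1.85 CPM in vehicle, 2.30, 2.11 and 2.06 at 20 µg/mL, 2.11, 2.35 and 2.58 at 100 µg/mL and 2.75, 3.12 and 3.23 at 500 µg/mL. Here too no library with ACD overlapped the vehicle, and PDK3 had the second highest log2 fold change among members, 0.66 ± 0.13 (SE, adjusted p = 0.0129), at a low level. Without vehicle replicate 2 this was 0.675 (adjusted p = 0.0552), and without high-dose replicate 3 it was 0.60 (adjusted p = 0.0649). PDK3 made up 40.3% ± 1.55 (SD, n = 3) of the PDK1 and PDK3 transcripts per kb in vehicle and 44.9% ± 1.28 at the high dose, without overlap. The shares rest on canonical transcript lengths of 14072 bases for PDK1 and 1741 bases for PDK3. Without division by length PDK1 stood at 23.0 and PDK3 at 1.92 CPM in vehicle. These shares leave out PDK2 and PDK4, which were not members. In vehicle PDK2 stood at 10.8 and PDK4 at 1.49 CPM per kb, beside 1.64 for PDK1 and 1.10 for PDK3. Neither PDK2 nor PDK4 passed edgeR's test at the high dose (log2 fold changes −0.075 and 0.115, adjusted p = 0.65 and 0.596).

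The bifunctional enzymes PFKFB3 and PFKFB4 set the level of fructose 2,6-bisphosphate, the activator of phosphofructokinase. PFKFB3 read 32.3, 35.0 and 33.9 CPM in vehicle, 36.8, 35.7 and 31.7 at 20 µg/mL, 36.6, 33.2 and 36.2 at 100 µg/mL and 38.1, 29.3 and 38.9 at 500 µg/mL. The groups overlapped, replicate 2 of the high dose being the lowest of all libraries, and the log2 fold change was 0.08 ± 0.10 (SE, adjusted p = 0.755). PFKFB4 was scarce, at 2.86 to 4.26 CPM over all libraries, with a log2 fold change of 0.25 ± 0.14 (adjusted p = 0.354).

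HIF1A encodes the oxygen-regulated subunit of HIF-1 (chr14:61695513-61748259). It read 94.5, 105 and 110 CPM in vehicle, 122, 126 and 127 at 20 µg/mL, 126, 124 and 128 at 100 µg/mL and 121, 124 and 127 at 500 µg/mL. Every library with ACD was above every vehicle library, and the 3 doses lay on top of each other. The log2 fold changes were 0.28 ± 0.07 (SE) at the low, 0.29 ± 0.07 at the medium and 0.27 ± 0.07 at the high dose, with adjusted p-values of 0.183, 0.0689 and 0.0371. These 3 comparisons share the vehicle libraries, whose replicate 1 was the lowest. The call at the high dose was made in 6 of 20 alternative fits, the fewest among the 8 members, and was 0.21 (adjusted p = 0.109) without vehicle replicate 1. The difference between the high and the low dose was −0.01 ± 0.07 (adjusted p = 0.956).

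VEGFA, the signal that draws blood vessels towards tissue short of oxygen, had the highest log2 fold change of all members. It read 63.4, 70.8 and 65.1 CPM in vehicle, 69.3, 75.0 and 73.5 at 20 µg/mL, 72.6, 67.4 and 68.1 at 100 µg/mL and 129, 98.4 and 123 at 500 µg/mL. The high-dose libraries lay above all 9 others and the low and medium libraries overlapped the vehicle. The log2 fold change at the high dose was 0.815 ± 0.095 (SE, adjusted p = 0.000311), and 0.92 ± 0.06 without high-dose replicate 2, the lowest of its group. It passed in all 20 alternative fits.

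At the high dose against vehicle, none of the other 11 HIF targets outside glycolysis passed edgeR's test in either direction, nor DESeq2's on all libraries. Of these, 3 (EGLN1, P4HA1 and P4HA2) had an unadjusted p under 0.05, as had 20.1% of all genes tested. The oxygen sensor EGLN1 read 46.2, 45.8 and 47.7 CPM in vehicle, 49.5, 48.1 and 46.6 at 20 µg/mL, 49.6, 45.4 and 42.1 at 100 µg/mL and 40.4, 39.1 and 42.0 at 500 µg/mL. It was the member whose high-dose libraries all lay below the vehicle libraries, with a log2 fold change of −0.20 ± 0.07 (SE, adjusted p = 0.142). Between the high and the low dose EGLN1 lay at −0.246 ± 0.072 (adjusted p = 0.103 in edgeR), a fall that DESeq2 called on all libraries. CA9, a carbonic anhydrase, is a much used marker of hypoxic cells, and it read 83.4, 66.9 and 60.1 CPM in vehicle and 57.1, 67.0 and 58.0 CPM at the high dose. These overlapped, with vehicle replicate 1 the highest of all, and the log2 fold change was −0.21 ± 0.12 (adjusted p = 0.365). Counts of ARHGEF39 on the opposite strand were 43.1% of those of CA9.

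The mitophagy receptor BNIP3 read 2.59, 3.46 and 3.87 CPM in vehicle and 2.70, 1.77 and 2.83 CPM at the high dose, with overlap (log2 fold change −0.41 ± 0.22, adjusted p = 0.324). It has 44 named pseudogenes, which held 31.5% to 47.9% of the reads of BNIP3 and these copies together, so its level is uncertain. BNIP3L, its relative, read 13.4, 13.2 and 13.8 CPM in vehicle, 10.7, 11.6 and 10.9 at 100 µg/mL and 10.2, 14.7 and 12.2 at 500 µg/mL. Its medium libraries lay below the vehicle (log2 fold change −0.28 ± 0.11, adjusted p = 0.332), while its high-dose libraries lay on both sides. P4HA1, a collagen prolyl hydroxylase, read 31.9, 28.5 and 30.1 CPM in vehicle and 32.0, 48.9 and 34.3 CPM at the high dose, again with replicate 2 on top. Its groups only just failed to overlap, and its log2 fold change of 0.34 ± 0.135 (adjusted p = 0.181) was 0.14 ± 0.08 without that library. P4HA2, of the same family, lay at 0.195 ± 0.09 without overlap (adjusted p = 0.24).

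The hydroxylase EGLN3 lay at −0.13 ± 0.10 (log2, SE) at the high dose, and its medium libraries, at 9.37, 8.88 and 8.27 CPM, lay below the vehicle libraries at 11.5, 10.4 and 9.80 CPM (log2 fold change −0.26 ± 0.10, adjusted p = 0.313). The peptide hormone ADM lay at 0.04 ± 0.15, the stress-responsive NDRG1 at −0.13 ± 0.11 and the histone demethylase KDM3A at 0.03 ± 0.09 on the log2 scale at the high dose. ANKRD37, whose promoter carries the letters ACGTG in several places, was the scarcest tested member, at 0.564 to 1.03 CPM over all libraries, and its log2 fold change of −0.38 ± 0.285 had an adjusted p of 0.517. The counts of UFSP2, on its opposite strand, were 1154% of its own, and their part in its value was not tested.

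**Figure D4:**
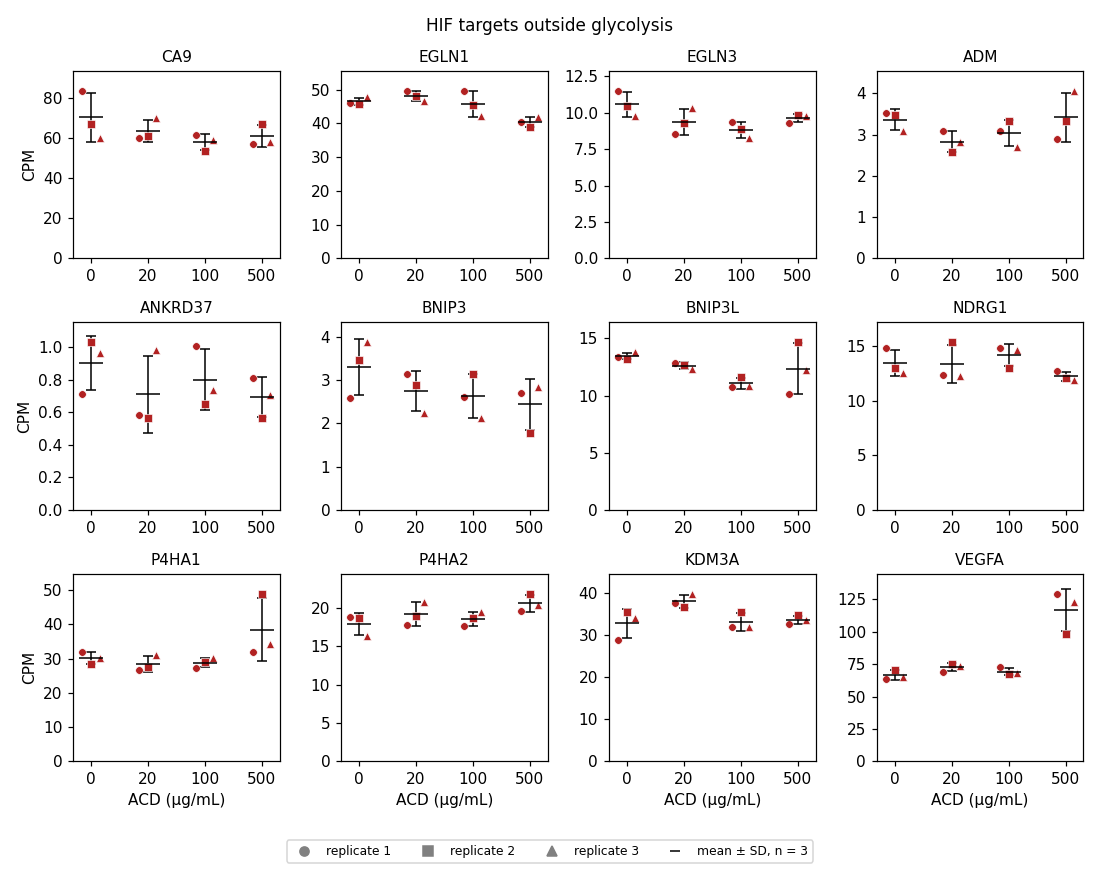
CPM of the 12 HIF targets outside glycolysis in each library (points, shaped by replicate number) at 0 (vehicle), 20, 100 and 500 µg/mL ACD, with mean ± SD (n = 3). VEGFA separates from the other groups at 500 µg/mL, and EGLN1 lies between 39.1 and 42.0 CPM there, below its vehicle libraries.

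Side by side, the glycolytic enzymes and the HIF targets outside glycolysis differed in their middle. At the high dose the median log2 fold change was 0.20 over the 17 enzymes, of which 3 rose, and −0.13 over the 12 HIF targets, of which VEGFA rose, beside 0.005 over all genes tested, of which 2.82% rose. At the medium dose the medians were 0.04 and −0.10, beside −0.01 over all genes, and at the low dose 0.04 and −0.09, beside −0.001. These comparisons share the vehicle libraries. Without high-dose replicate 2 the enzyme median at the high dose was 0.09, with 12 of 17 above 0. In that fit 6 enzymes rose (PFKM, PFKP, ENO2, HK1, HK2 and ALDOC), beside 9.83% of all genes. For the HIF targets the median stayed at −0.13, with 5 of 12 above 0. The median of the HIF targets was −0.065 where vehicle replicate 1 was left out, −0.062 where the same was done with replicate 1 of the high dose, and −0.051 without EGLN1 and EGLN3. By library, the median log2 difference of the enzymes from the vehicle mean was 0.135, 0.31 and 0.05 in high-dose replicates 1 to 3, and that of the HIF targets was −0.12, −0.03 and −0.12. No test was made of the difference between the classes, since the genes are not replicates of a condition.

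**Figure D5:**
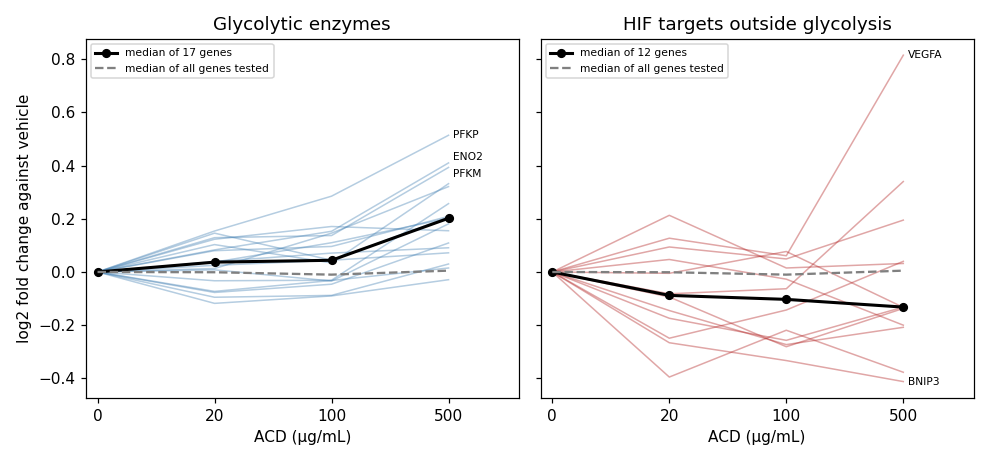
Log2 fold change against vehicle at 20, 100 and 500 µg/mL ACD for each glycolytic enzyme (left, 17 genes) and each HIF target outside glycolysis (right, 12 genes), with the class median in black and the median of all genes tested dashed. The enzyme median reaches 0.20 at 500 µg/mL while that of the HIF targets lies at −0.13, with VEGFA far above its class.

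The plot of classes by dose shows most enzyme lines close to 0 up to 100 µg/mL and spreading upwards at 500 µg/mL. The lines of the HIF targets lie on both sides of 0 at every dose, and VEGFA leaves its class at the last step.

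At the medium dose 0 of the 36 members passed edgeR's test, beside 1.01% of all genes, and at the low dose 0 passed, beside 0.124%. At an unadjusted p under 0.05 there were 8 members at the medium dose, 5 above and 3 below 0, and 4 at the low dose, all above 0, beside 11.7% and 7.95% of all genes. DESeq2's Wald test on all libraries called 3 members at the medium dose (HIF1A, PFKP and SLC2A1) and 1 at the low dose (HIF1A), beside 2.36% and 0.709% of all genes in that test. Without high-dose replicate 2, edgeR called 4 members at the medium dose (BNIP3L, HIF1A, PFKP and SLC2A1) and 1 at the low dose (HIF1A), but 6.87% and 2.03% of all genes then passed. The medium libraries lay wholly above the vehicle in 10 members and below in 2, beside 14.5% and 14.1% of all genes, and the low libraries in 6 and 3, beside 11.4% and 9.61%. PFKP had log2 fold changes of 0.15, 0.285 and 0.51 at the low, medium and high dose, PDK3 of 0.17, 0.29 and 0.66, PDK1 of 0.155, 0.17 and 0.39, and SLC2A1 of 0.04, 0.26 and 0.48.

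A trend over the dose rank was called in 7 members, all upwards, beside 2.76% of all genes tested. They were SLC2A1, PFKM, PFKP, ENO2, PDK1, PDK3 and VEGFA, which are the 8 of the high dose without HIF1A. Without high-dose replicate 2 there were 13, of which 11 went up and 2 down and which included BNIP3L and CA9, while 17.5% of all genes were then called in either direction. Without high-dose replicate 3 there were 3 (PDK1, PFKP and SLC2A1), beside 2.88% of all genes in either direction. The slope per dose step on the log2 scale was 0.17 for SLC2A1 (adjusted p = 0.000955), 0.17 for PFKP (adjusted p = 0.000346) and 0.24 for VEGFA (adjusted p = 0.0119). For VEGFA the slope does not describe an even rise. Its log2 fold changes were 0.13 at the low, 0.06 at the medium and 0.815 at the high dose. Between the high and the low dose, a contrast free of the vehicle libraries, 3 members rose, beside 1.44% of all genes. They were VEGFA at 0.69 ± 0.095 (log2, SE, adjusted p = 0.00139), SLC2A1 at 0.44 ± 0.07 (adjusted p = 0.00355) and PFKP at 0.36 ± 0.07 (adjusted p = 0.0103). Without high-dose replicate 2 there were 5, ENO2 and HK2 being added, beside 7.29% of all genes in either direction. Without low-dose replicate 1 there were 2, SLC2A1 and VEGFA, beside 1.67%.

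Levels between genes were compared as CPM per kb of the canonical transcript in the vehicle group. GAPDH led at 2190, followed by PKM at 974 and ENO1 at 969, which overlapped, then ALDOA at 790, TPI1 at 621 and LDHB at 558, of which the last pair overlapped, and LDHA at 408. SLC2A1 stood at 157 CPM per kb, far over the lactate exporter SLC16A3 at 24.4. The phosphofructokinases stood at 44.9 (PFKP), 28.3 (PFKL) and 21.5 (PFKM), and HK1 at 38.8 was above HK2 at 9.83. Among HIF targets CA9 led at 45.4 CPM per kb, followed by VEGFA at 18.4, and then by P4HA1 and EGLN1 (10.7), which overlapped. The kinases PDK1, whose canonical transcript is 14072 bases long, at 1.64 and PDK3 at 1.10 and the enzyme PFKFB4 at 0.926 were near the bottom of the order, beside ANKRD37 at 1.15.

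Genes of the same pathways that were not members were counted for comparison. Of 23 other glycolysis, lactate and pyruvate genes tested, 1 rose and 1 fell at the high dose, beside 2.82% of all genes that rose and 2.95% that fell. Without high-dose replicate 2 there were 2 in each direction, DLAT and MPC2 being added, beside 9.83% of all genes upwards and 8.89% downwards in that fit. The hexokinase-like HKDC1 read 24.9, 27.9 and 26.3 CPM in vehicle and 34.1, 35.3 and 34.6 at the high dose (log2 fold change 0.39), and the galactose mutarotase GALM read 27.2, 23.7 and 23.6 CPM and then 17.8, 19.0 and 18.1 (−0.44). Neither gene's groups overlapped. Of 5 gluconeogenesis genes PCK2, the mitochondrial PEP carboxykinase, rose from 24.5 ± 1.62 to 48.1 ± 1.49 CPM (SD, n = 3, log2 fold change 0.98), and the other 4 did not pass, of which PC, pyruvate carboxylase, passed upwards without high-dose replicate 2.

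Of 12 other oxygen-sensing genes 0 passed edgeR's test at the high dose and 0 had an unadjusted p under 0.05, beside 5.77% and 20.1% of all genes. Their median log2 fold change was −0.03. Without high-dose replicate 2, 1 of them (ELOC) was called downwards. Of 34 other hypoxia-induced genes 1 rose and 3 fell, with a median of 0.007, beside the same 2.82% and 2.95% of all genes. Without that library 4 were called upwards (DDIT4, BHLHE41, CA12 and GYS1) and 8 downwards, beside 9.83% and 8.89% of all genes, and the median was −0.02. The one that rose was DDIT4 (REDD1), an inhibitor of mTORC1 that many stresses induce, from 19.8 ± 0.722 to 70.2 ± 5.30 CPM (SD, n = 3, log2 fold change 1.83), which stood at 19.0 ± 0.108 and 19.5 ± 0.649 CPM at the low and medium dose. Those that fell were DPYSL2 (−0.74), KLHL24 (−0.615) and PPP1R3B (−0.51), the last a glycogen-targeting subunit of protein phosphatase 1. At the medium dose 3 of these 34 fell, beside 0.436% of all genes, and none rose, namely DPYSL2 (−0.46), CXCR4 (−0.49) and the lipid droplet gene HILPDA (−0.44), and HILPDA read 19.6, 16.3 and 18.0 CPM in vehicle and 12.7, 13.6 and 13.3 at the medium dose. At the low dose 0 of the 74 genes of these 4 lists passed, beside 0.124% of all genes, and 6 had an unadjusted p under 0.05, beside 7.95%.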

How the data were processed

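RNA of HT29 cells was sequenced in 12 libraries (4 groups of 3) with a directional kit and paired-end reads. Per the labels and the paper's methods, the authors checked reads with FastQC 0.11.9, trimmed them with Trim Galore 0.6.5, aligned them with STAR 2.7.3a and estimated expression with RSEM 1.3.3 on GRCh38 (tool versions from the submitters' processing notes, some of which differ in the paper's methods). The deposited values are the expected counts per gene of RSEM, not normalized, and the strand setting is not given in the sources used here. Of the gene IDs 93.2% were in GENCODE release 44 for GRCh38, which gave symbols, coordinates and canonical transcript lengths.

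Counts were rounded to whole numbers and tested with edgeR 4.0.16 (R 4.3.3) in 1 fit of all 12 libraries, with filterByExpr, TMM, robust quasi-likelihood F tests and Benjamini–Hochberg adjustment over the 15374 genes tested. A call was an adjusted p under 0.05, and a second rule added the fold change over 1.5 of the study's methods. Standard errors came from the F statistic. A trend used the dose rank as a linear term. Class medians, isozyme shares (CPM per kb) and promoter letters are descriptions with no test. Between replicates chi-square per gene was 3.56 to 68.5, more than counting error gives, and every library was entered as its own. This does not show that the libraries came from separate cultures. Counting intervals would cover counting error only, and depth limits the scarce members (ANKRD37, PDK3, BNIP3, ADM and PFKFB4) most.

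Alternatives were DESeq2 1.42.0 on all libraries or on 2 groups, edgeR on 2 groups, DESeq2's size factors in edgeR, library sizes without mitochondrial genes, no filter or at least 10 counts in every library, the replicate number as a block, the fold rule, and each library left out in turn. The fits were tested on simulated counts with known changes. Over genes of all expression levels fewer changed genes were recovered than first required, since genes with low counts were often missed. The requirement was then limited to genes with more counts, where it was met. A missing call in a scarce member therefore says little. The members, the lists and the tests were chosen with earlier results of these data known. All members are named, with every library's value for those called in a dose contrast and the highest mean CPM of each class, and of the other lists the genes called in a dose contrast, at most 5 a list. Library values of further members, values of PDK2 and PDK4, and the names of other genes called without high-dose replicate 2, were added after they were seen. Libraries of other cells or drugs were not analysed here.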

Additional observations from a re-analysis of the deposited data

Results flagged for a closer look

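In 3 members the effect of the high dose differed from that of the low dose in a direct test (edgeR's quasi-likelihood test, adjusted over all genes, 3 libraries per group). The difference, high minus low on the log2 scale, was 0.69 for VEGFA (adjusted p = 0.00139), which encodes the vessel growth factor, and the 3 high-dose libraries lay above the 3 low-dose libraries. It was 0.44 for SLC2A1 (adjusted p = 0.00355), the glucose importer, and 0.36 for PFKP (adjusted p = 0.0103), the platelet phosphofructokinase, again with no overlap between the groups. VEGFA stood at 72.6 ± 2.98 CPM (SD, n = 3) at the low and 117 ± 16.3 CPM at the high dose, SLC2A1 at 546 ± 8.36 and 743 ± 41.6 CPM, and PFKP at 131 ± 4.82 and 168 ± 10.1 CPM. In edgeR fitted on these 2 groups alone, 0 members passed, beside 0.635% of all genes in either direction.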

How the results depend on the processing

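The 8 members called at the high dose became 1 (VEGFA) with edgeR on 2 groups alone, 2 under the fold rule, 6 with DESeq2 on 2 groups and 12 with DESeq2 on all libraries. In the same order 1.21%, 2.93%, 3.52% and 8.46% of all genes passed in either direction, beside 5.77% in the main fit. The count of 0 at the medium dose became 3 with DESeq2 on all libraries, with edgeR on 2 groups and with DESeq2 on 2 groups. Of all genes 2.36%, 4.18% and 5.27% then passed, beside 1.01% in the main fit. The 0 at the low dose became 1 with DESeq2 on all libraries and on 2 groups. There 0.709% and 1.21% of all genes passed, beside 0.124%. The trend count of 7 became 11 with DESeq2, where 9.32% of all genes passed, beside 5.74%. The 3 between high and low dose became 6 with DESeq2 on all libraries, 5 upwards and 1 (EGLN1) downwards, beside 4.86% of all genes. They became 0 with edgeR on 2 groups, beside 0.635% of all genes, and 1 under the fold rule, beside 1.58%. In the main fit 2.98% of all genes passed. The median of the HIF targets at the high dose, −0.13, was −0.051 without the oxygen sensors EGLN1 and EGLN3. Fits on 2 groups have fewer libraries to estimate the spread. With edgeR on 2 groups 181 genes passed at the high dose, against 887 in the main fit. At the medium dose 624 passed against 155, and at the low dose 84 against 19. The cause of these differences was not tested.

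With each library left out in turn, the high-dose count ranged from 4 to 12 (4 without vehicle replicate 2, 5 without high replicate 3 and 12 without high replicate 2), the medium count from 0 to 4, the low count from 0 to 1, the trend count from 3 (without high replicate 3) to 13 (without high replicate 2) and the high against low count from 2 to 5. The highest medium, low and high against low counts came without high replicate 2. In that fit 18.7% of all genes passed at the high, 6.87% at the medium and 2.03% at the low dose. For the trend it was 17.5%, and 7.29% between the high and the low dose. At the high dose 2.77% of all genes passed without vehicle replicate 2 and 3.47% without high replicate 3. The enzyme median ranged from 0.09 to 0.26 and that of the HIF targets from −0.14 to −0.06 (−0.065 without vehicle replicate 1 and −0.062 without high replicate 1). Log2 fold changes at the high dose that changed sign in such a fit, none of them called, ranged from −0.088 to 0.046 for ALDOA (highest without vehicle replicate 1, and 0.01 without high replicate 3), from −0.032 to 0.23 for TPI1, from −0.051 to 0.31 for PGK1, from −0.13 to 0.12 for PGAM1, from −0.048 to 0.40 for LDHB, from −0.125 to 0.16 for ADM (−0.01 without vehicle replicate 3) and from −0.051 to 0.10 for KDM3A. VEGFA passed in all 20 alternative fits of the high dose, SLC2A1, PFKP and PDK1 in 19, PFKM and ENO2 in 16, PDK3 in 15 and HIF1A in 6.

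With the replicate number as a block, 7 members passed at the high dose (HIF1A did not), 7 in the trend, 3 between the high and the low dose and 0 at the medium and the low dose. Of all genes 4.09%, 3.85%, 2.02%, 0.592% and 0.111% passed, in the same order. No pairing by number was visible, as 4 of 18 same-number pairs had a correlation of deviations over 0.1 (range −0.264 to 0.139). In the same check 3 of 12 libraries correlated best with their own number. The largest correlations involved high-dose replicate 2 (0.312 with vehicle replicate 1 and 0.265 with low replicate 3). The check therefore cannot exclude pairing among the others, and the block is a description. ANKRD37 had no value with at least 10 counts in every library.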
